A study of Homo sapiens with 6 samples.

Results

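The RNA bins described here were recovered with CELF1 from the melanoma line SK-Mel-103 and appeared in neither list of the melanoma line UACC-62. They were defined by their reads, as 20-nt bins with more than 30 IP reads in the SK-Mel-103 list that were not listed at all in either UACC-62 list. There were 1515 of them among 55930 SK-Mel-103 bins with more than 30 IP reads (2.71%), and among 1589987 bins listed in any sample. CELF1 (also named CUGBP1) was immunoprecipitated with an anti-CUGBP1 antibody from untreated cells grown in medium with serum, and the RNA recovered (IP) was sequenced beside input RNA. The groups were SK-Mel-103, an established NRAS-mutated human melanoma line with IP replicate 1 only, and UACC-62, an established BRAF-mutated human melanoma line with IP replicates 1 and 3. For each IP the authors called bins with the matching input as covariate, and input reads were seen only in listed bins. SK-Mel-103 had no replicate, so that no value below carries a replicate error for this line, and intervals are 95% Wilson intervals that cover counting error only and treat neighbouring bins as independent, which they are not.

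CELF1 is an RNA-binding protein of the CELF family, which recognizes stretches rich in U and G, among them UGU-containing elements. In the cytoplasm it binds 3′ UTRs and is known for recruiting deadenylation and decay of short-lived mRNAs and for effects on translation, and in the nucleus it binds introns and takes part in alternative splicing. The presence of a bin in a list depends on the level of the transcript as well as on its binding. For bins absent from UACC-62 the input of that line is unknown, and less RNA and less binding in UACC-62 cannot be told apart. No list held a bin with fewer than 4 IP reads, so an absent bin had fewer reads than that or did not pass the p-value threshold against its input. The labels describe the libraries both as poly A+ RNA and as prepared by removal of ribosomal RNA, a difference that bears on reads in introns.

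The following sequences are bins of AXL, the gene with most such bins, and are shown because its introns and exons differed in input reads and in U- and G-rich sequence. Each is the transcript strand of GRCh37, written 5′ to 3′ as DNA with every TGT in capitals. The first 4 are the bins with the highest IP read counts in AXL introns, and the remaining 4 are the highest of its 3′ UTR and coding region.
AXL intron, chr19:41731661-41731680, plus strand: TGTGTgccgttaacttacca
AXL intron, chr19:41734081-41734100, plus strand: cgtgcttcTGTGTGTgcacg
AXL intron, chr19:41731561-41731580, plus strand: aTGTctctttatgaaTGTac
AXL intron, chr19:41731501-41731520, plus strand: aaTGTGTacaTGTGTgactg
AXL 3′ UTR, chr19:41767061-41767080, plus strand: cagatgctccaagattctag
AXL 3′ UTR, chr19:41767221-41767240, plus strand: tttctaaTGTtggacacctt
AXL coding region, chr19:41726661-41726680, plus strand: ggcttcgggatggacagatc
AXL coding region, chr19:41726541-41726560, plus strand: gcacgcaggctgaagaaagt
The 4 intronic bins held 2, 3, 2 and 4 TGT occurrences, overlaps counted, against a single occurrence in the 4 exonic bins. Their IP and input reads were 193 and 9, 156 and 8, 140 and 5, and 137 and 4. The highest 3′ UTR bin had 119 IP and 137 input reads, and the 2 coding bins had 90 IP and 82 input reads and 73 IP and 34 input reads.

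Absence from another list was rare within UACC-62 and more frequent between the lines. Of the SK-Mel-103 bins over 30 reads, 4.22% (95% interval 4.06 to 4.39%) were not listed in UACC-62 replicate 1 and 3.93% (3.77 to 4.10%) were not listed in replicate 3. Between the UACC-62 replicates the corresponding shares were 0.766% and 1.22%. In the opposite direction, 3239 of the 49106 bins over 30 reads in both UACC-62 replicates (6.60%) were absent from SK-Mel-103. With absence from the other 2 lists required in turn, 209 of 58123 bins (0.36%) were found only in UACC-62 replicate 1 and 600 of 85010 (0.706%) only in replicate 3. Here the other lists included a replicate of the same line, which SK-Mel-103 lacks, so these shares and the 2.71% of SK-Mel-103 are not like measures. The listed bins held 10958459 IP reads in the SK-Mel-103 sample, 11333805 in UACC-62 replicate 1 and, more than in either, 14436573 in replicate 3. These are reads in called bins, and the depth of the libraries was not compared.

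The share of SK-Mel-103 bins missing from UACC-62 fell with the reads of the bin, from 54.0% at 5 to 10 reads and 6.56% at 21 to 30 reads to 3.66% at 31 to 50 reads and 1.09% above 200 reads. The threshold of more than 30 reads chose the members. Just inside it, 104 of 2302 bins with 31 IP reads were absent from UACC-62, and just outside it 110 of 2536 bins with 30 IP reads were absent. The members lay low in the range of SK-Mel-103, with a median of 41 IP reads against 51 over all SK-Mel-103 bins past the filter, and 113 of them had more than 100. Many lay beside RNA that was recovered in UACC-62: 335 (22.1%) had a listed UACC-62 bin within 20 nt on the same strand, 583 (38.5%, 36.1 to 41.0%) within 100 nt and 939 (61.98%) within 1000 nt.

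**Figure D1:**
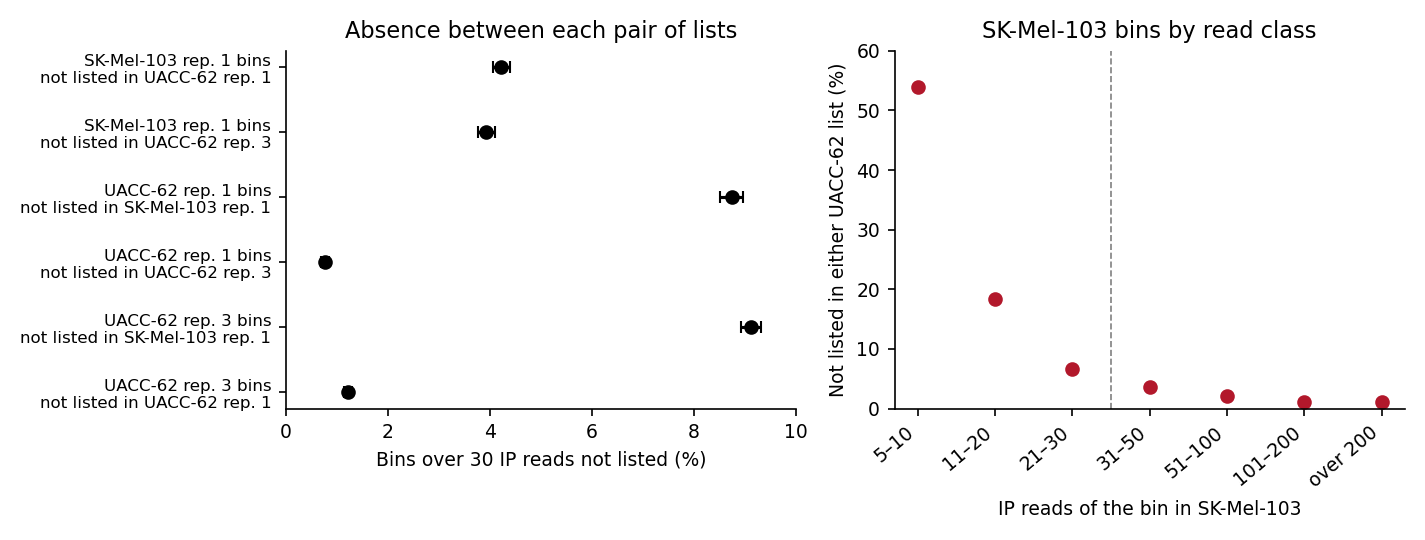
Left, the percentage of bins over 30 IP reads in the named sample that were not listed in another, for the 6 ordered pairs of the 3 IP samples; right, the percentage of SK-Mel-103 bins absent from both UACC-62 lists by class of IP reads, with the dashed line at the filter of 30 reads. Points are shares and bars are 95% Wilson intervals; the UACC-62 replicates missed 0.766% and 1.22% of each other's bins, against 3.93 to 9.11% between the lines.

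Compared with SK-Mel-103 bins as a whole, these bins lay less often in 3′ UTRs and more often in introns and outside annotated genes. The 3′ UTRs of protein-coding genes held 666 (43.96%, 41.5 to 46.5%), against 74.1% of all SK-Mel-103 bins over 30 reads. Coding regions held 297 (19.6%), close to the 16.7% of all bins, and 5′ UTRs held 7. Introns of protein-coding genes held 208 (13.7%, 12.1 to 15.6%) against 2.55%, and 285 bins (18.8%, 16.9 to 20.9%) lay outside annotated genes against 3.93%. The remainder lay in exons (14) and introns (38) of non-coding genes. Of the 208 intronic bins, 121 belonged to AXL, and without the bins of AXL the 3′ UTR share was 48.5%.

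Input support was lower than for SK-Mel-103 bins as a whole. Column 8 of the lists, read as input reads, gave a median of 14 input reads for these bins and 25 over all SK-Mel-103 bins past the filter, and 190 (12.5%, 10.97 to 14.3%) had no input read at all, against 1.90%. The median log2 IP over input, with 1 read added to each and both divided by their listed totals, was 1.13 against 0.83, and it was above 0 in 1035 of the 1515 bins. It differed between regions. The 3′ UTR bins had a median of 22 input reads and a median log2 IP over input of 0.53, against 21 reads and 1.10 over all SK-Mel-103 3′ UTR bins past the filter. In the other regions the medians were higher than over all bins of the region. The coding bins had 46 input reads and -0.42, against 72 and -0.90. The intronic bins had 3 and 3.15, against 7 and 2.40, and the bins outside genes 2 and 3.65, against 7 and 2.76. Bins in exons thus mostly came with input reads in SK-Mel-103, and those in introns and outside genes with few.

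**Figure D2:**
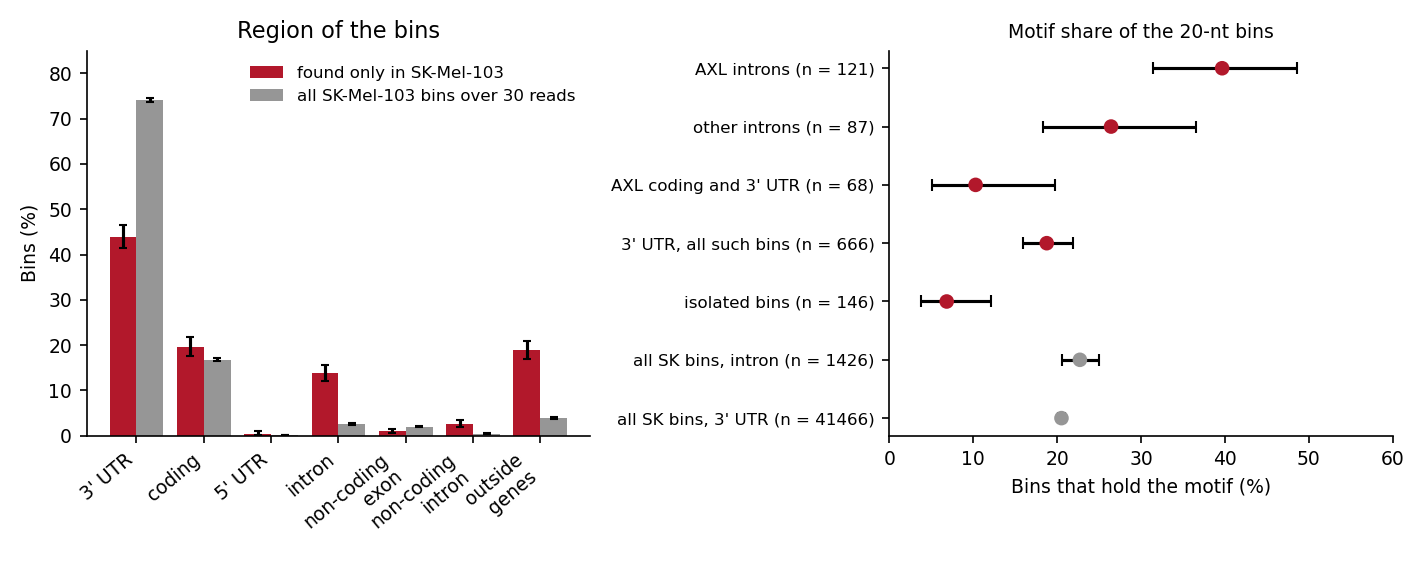
Left, the percentage of bins in each transcript region for the 1515 bins found only in SK-Mel-103 (red) and all 55930 SK-Mel-103 bins over 30 IP reads (grey); right, the percentage of 20-nt bins that hold UGUU or GUGU, in subsets of the former (red) and of all bins (grey), n being the number of bins. Bars and lines are 95% Wilson intervals; 3′ UTRs held 43.96% against 74.1%, and AXL introns had the highest motif share plotted at 39.7%.

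AXL, a receptor tyrosine kinase of the TAM family that binds GAS6, held 192 of the 1515 bins, which were 192 of its 197 bins over 30 reads in SK-Mel-103. In SK-Mel-103 the gene had 649 listed bins, which summed to 16908 IP and 9985 input reads. UACC-62 replicate 1 listed 4 AXL bins summing to 26 IP reads and replicate 3 listed 4 summing to 24, none with more than 10 reads. Low UACC-62 values in both replicates are what the rule selected on and are given as a description. The input of those few UACC-62 bins amounted to 11 and 3 reads.

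The AXL bins differed in input reads between exons and introns. In its coding region 44 bins had a median of 41 IP and 60 input reads, and in its 3′ UTR 24 bins had a median of 58.5 IP and 92.5 input reads, giving a log2 IP over input of the summed reads of -0.75 and -1.02. In its introns 121 bins had a median of 45 IP and 3 input reads, and a summed log2 IP over input of 3.48. The other 3 bins were 5′ UTR bins, with 160 IP and 32 input reads in all and a summed log2 of 1.91. This sum joins unlike bins. The bin at 163 nt from the gene start had 64 IP and 27 input reads, a log2 of 0.84. The bins at 7543 and 7563 nt had 61 IP and 4 input reads and 35 IP and 1 input read. Their log2 values were 3.26 or more, against a median of 3.25 for the intronic bins. All 192 bins had passed the same filter on IP reads. Over all listed SK-Mel-103 bins of AXL, whatever their reads, the 459 in introns had 11112 IP and 1291 input reads (log2 2.73) and the 190 in exons 5796 and 8694 (log2 -0.96). Introns were counted as the gaps left when the exons of all protein-coding transcripts were merged. All 121 intronic bins lay in 3 of the 20 introns so counted, and the centre of none lay in an exon of a protein-coding AXL transcript.

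Intron 4 of AXL (counted from the 5′ end, 4698 nt) held 73 of these bins and 5957 IP against 348 input reads. Intron 5 (4054 nt) held 46 with 3976 IP against 407 input reads, and intron 3 (633 nt) held 2 with 399 against 125. These introns lie between 2024 and 11744 nt from the annotated gene start. The exon between introns 4 and 5, from 7532 to 7690 nt, held the 5′ UTR bins at 7543 and 7563 nt. In transcripts that lack this exon, introns 4 and 5 are parts of a longer intron. Intron 7, the longest so counted at 6645 nt and the second after intron 5, had 274 IP and 102 input reads and no bin over 11 reads. Per kb of intron the IP reads were 1268 in intron 4, 981 in intron 5 and 41.2 in intron 7. In UACC-62 the AXL introns had a single listed bin in replicate 1 and none in replicate 3. The longest unbroken run of members, 15 bins or 300 nt, also lay in an AXL intron.

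**Figure D3:**
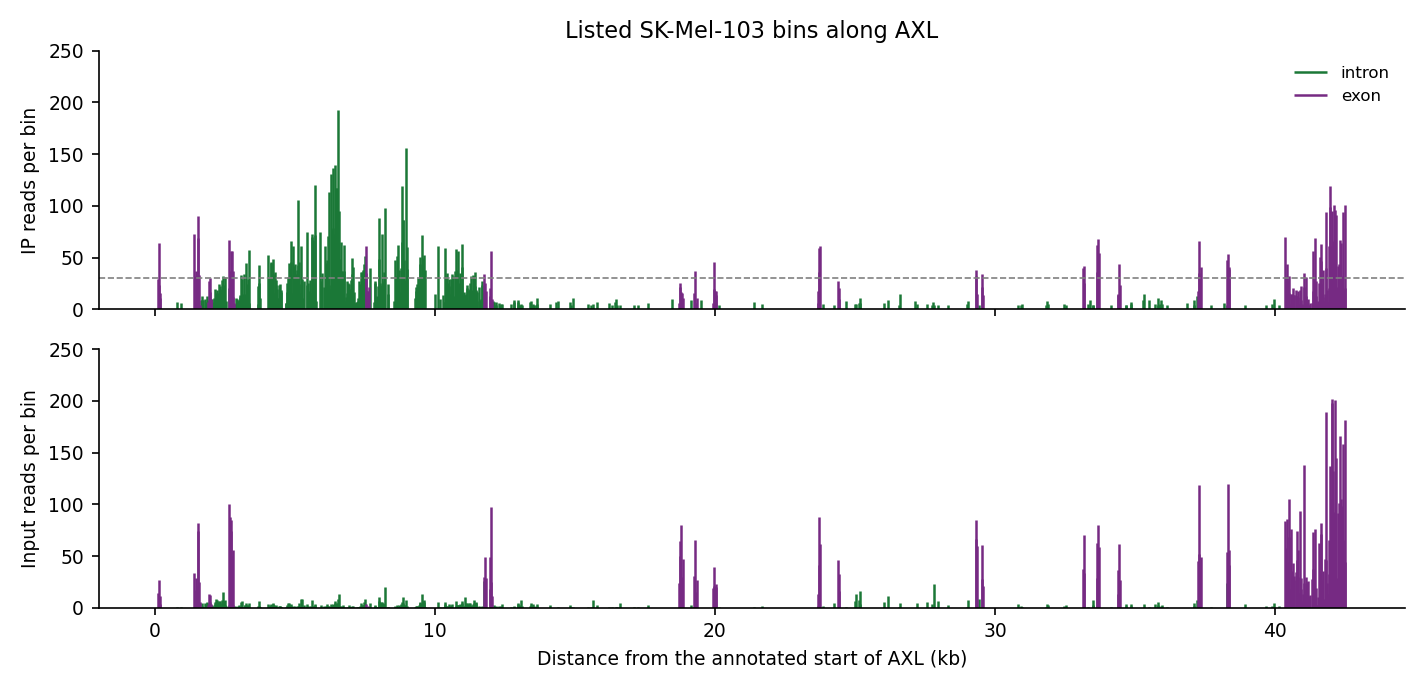
IP reads (top) and input reads (bottom) of every listed SK-Mel-103 bin of AXL against the distance of the bin from the annotated gene start in kb, with bins in exons of protein-coding transcripts in purple and bins in introns in green; the dashed line marks 30 IP reads. Intronic IP reads reached 193 per bin between about 2 and 12 kb from the start where input reads were few. Input reads were highest in exons, but the exon bins from 7543 to 7663 nt had at most 4.

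The bins fell in 214 of the 3172 protein-coding genes that had a SK-Mel-103 bin over 30 reads (6.75%). They were concentrated: 135 genes held exactly 1 and 29 genes held 10 or more, 864 bins together. In 81 genes every SK-Mel-103 bin over 30 reads was absent from UACC-62. After AXL the highest counts were in ALDH1A3 (88 of 93 bins over 30 reads), TGFBI (62 of 67), AKAP12 (59 of 272) and CD274 (41 of 41). These 5 genes together held 442 bins.

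Several leading genes encode secreted or matrix proteins. TGFBI, a secreted matrix protein induced by TGF-beta, had 198, 1 and 4 listed bins in SK-Mel-103 and the UACC-62 replicates 1 and 3, summing to 5778, 4 and 20 IP reads. Its SK-Mel-103 input was 8322 reads, and its 62 bins had a median log2 IP over input of -1.01. CCN1, a matricellular protein of the CCN family, had 87, 0 and 1 listed bins in the same order with 2158, 0 and 4 IP reads. In both genes the summed input of SK-Mel-103 was close to or above the IP in reads. FGF5, a fibroblast growth factor, differed in this: its 36 bins all lay in the 3′ UTR with 31 to 68 IP reads and a median of 13 input reads, a median log2 of 1.28. FGF5 had 3534 IP reads in SK-Mel-103 against 86 and 72 in the UACC-62 replicates, whose highest bin reached 27 reads, just under the filter.

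CD274, which encodes the immune checkpoint ligand PD-L1, had 203 listed bins in SK-Mel-103, summing to 4085 IP and 1336 input reads. UACC-62 replicate 1 listed none, and replicate 3 listed 2 that summed to 10 IP reads. Of its 41 bins, 39 lay in the 3′ UTR, with 31 to 124 IP reads, a median of 9 input reads and a median log2 IP over input of 1.83. This was above the 0.53 of all 3′ UTR bins found only in SK-Mel-103. Its strongest bin, with 124 IP and 39 input reads, and those of MB21D2 (139 and 31 reads), FGF5 (68 and 15 reads) and AMOTL2 (63 and 20 reads), all in 3′ UTRs, are shown as examples of 3′ UTR bins with more IP than input reads, the 4 sequences having 0, 1, 0 and 1 TGT.
CD274 3′ UTR, chr9:5470401-5470420, plus strand: ggcagagatgatacctaatt
MB21D2 3′ UTR, chr3:192515681-192515700, minus strand: tggcaTGTtagctggattta
FGF5 3′ UTR, chr4:81211301-81211320, plus strand: cattaaaaaaagtagtattg
AMOTL2 3′ UTR, chr3:134075981-134076000, minus strand: aagggTGTtagtcttggaga

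Among enzymes and transcription factors, ALDH1A3, which makes retinoic acid from retinal, had 417 listed bins summing to 9247 IP reads in SK-Mel-103, against 1 bin of 5 reads and 5 bins summing to 25 reads in the UACC-62 replicates. Of its 88 bins, 60 lay in the 3′ UTR and 16 in the coding region, with a median of 86.5 input reads in each. Its other 12 lay in its last intron and had a median of 52.5 IP and 5.5 input reads. Over all its listed SK-Mel-103 bins, ALDH1A3 had 3000 IP and 669 input reads in introns (log2 1.79) and 6247 and 10222 in exons (log2 -1.08). BMAL2, a basic helix-loop-helix PAS factor related to the clock protein BMAL1, had 334 listed bins with 4437 IP reads against 38 and 50 reads in 7 and 10 bins. Its 28 bins had a median of 45 input reads and a median log2 of -0.59.

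The other leading genes are of various functions. AKAP12, a scaffold for protein kinase A, was the one leading gene with bins over 30 reads in all 3 samples, namely 272 bins over 30 reads in SK-Mel-103, 1 in UACC-62 replicate 1 and 5 in replicate 3. Its IP reads were 21347, 1871 and 2057 and its input reads in listed bins 13934, 2021 and 1515, so that log2 IP over input was 0.24, -0.27 and -0.26. TRIO, a guanine nucleotide exchange factor, had 36488, 2086 and 1147 IP reads and 28110, 843 and 308 input reads, with log2 values of 0.00, 1.15 and 1.196. Each log2 value covers the listed bins of its own sample, 480, 213 and 195 for AKAP12 and 4106, 364 and 218 for TRIO. As bins were listed by their IP against input, these values do not compare enrichment between the lines. Both genes had more IP and more input reads in SK-Mel-103 than in either UACC-62 replicate. AMOTL2, an angiomotin family protein of cell junctions, had 4092, 72 and 121 IP reads, and 21 of its 22 bins lay in the 3′ UTR. MB21D2 had 8359, 165 and 323 IP reads. The 19 bins of PAK3, a p21-activated kinase, were all intronic, with a median of 43 IP and 6 input reads. They lay in a single intron, intron 7 of 21 counted as in AXL, while the PAK3 exons held 52 listed bins and none over 30 reads.

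**Figure D4:**
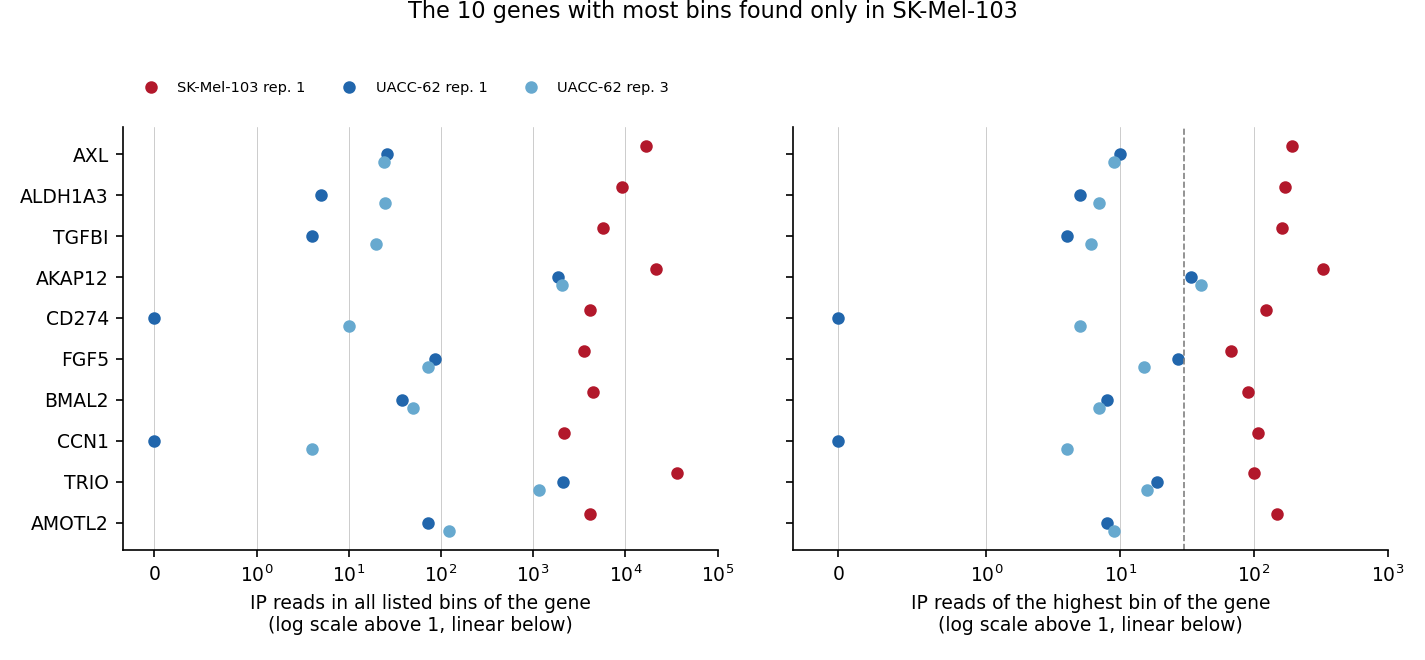
IP reads in all listed bins (left) and in the highest bin (right) of the 10 genes with most bins found only in SK-Mel-103, each point being 1 of the 3 IP samples; the axes are logarithmic above 1 and linear below, 0 means that no bin was listed, and the dashed line marks 30 reads. SK-Mel-103 was above both UACC-62 replicates in every gene plotted, the genes having been chosen by their SK-Mel-103 reads, and AKAP12 was the only one with UACC-62 bins above 30 reads (34 and 40).

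In 20 genes with 86 such bins UACC-62 had no listed bin at all, and in 113 further genes with 914 bins it had listed bins but none over 30 reads. Those with no UACC-62 bin lay mostly in 3′ UTRs (73 of 86 bins). PKIA, an inhibitor of protein kinase A, had 18 bins in its 3′ UTR with 35 to 97 IP reads, a median of 11.5 input reads and a median log2 IP over input of 1.61. MT1E, a metallothionein, had 6 bins with 52 to 245 IP reads on 54 to 993 input reads, a median log2 of -1.03, and its counts are uncertain because metallothionein genes are similar in sequence. ZNF22, a zinc finger protein, had 13 bins with 31 to 61 IP reads, VAT1L 5 with 31 to 119, LY6K, a protein of the LY6 family, 2 with 42 and 82, and CDKN2A, which encodes the cell cycle inhibitors p16 and ARF, 2 with 46 and 57. In these 6 genes the neighbouring transcript was covered in SK-Mel-103, with 12 to 124 listed bins per gene. Other strong bins of genes without a UACC-62 bin, those of MYO7A, BOK, ZSWIM2 and FRMD1, stood alone instead. MYO7A, an unconventional myosin, had a coding bin with 1772 IP reads, BOK, a BCL2 family member, a coding bin with 1056, and ZSWIM2 an intronic bin with 277, each without any input read, and FRMD1 an intronic bin with 167 IP and 20 input reads. MYO7A had 2 listed bins in SK-Mel-103 and the other 3 genes had 1.

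In 62 genes with 145 such bins UACC-62 had bins over 30 reads in both replicates, and 49 of these genes held a single bin found only in SK-Mel-103. By IP reads the first were RPS20 (a ribosomal protein, 225), ITGA6 (an integrin chain, 154), LDHA (lactate dehydrogenase, 120), AKAP12 (100), HNRNPK (an RNA-binding protein, 95) and CBX3 (the chromatin protein HP1 gamma, 93), and apart from AKAP12 none of these bins had an input read. The ITGA6 bin had no other listed bin within 40 nt, and the others lay within 40 nt of a bin listed with input in all samples. Beside the LDHA bin, which had 120 IP and 0 input reads, the bin before it had 208, 669 and 620 input reads in SK-Mel-103, UACC-62 replicate 1 and UACC-62 replicate 3. In HNRNPK the bin after had 43, 61 and 54 input reads in the same order. The single bin of DEK, a chromatin protein studied by the authors as a CELF1 target, had 63 IP and no input reads, and DEK had 74, 26 and 47 bins over 30 reads in the 3 samples. All of these genes had bins over 30 reads in both lines, and the bin named was an addition to them. The sequences of the bins of LDHA, HNRNPK, CBX3 and DEK are shown because they mark where SK-Mel-103 had a bin with neither input reads nor a UACC-62 listing within a gene that passed the filter in both lines.
LDHA coding region, chr11:18427081-18427100, plus strand: aatcttaggcgggtgcaccc
HNRNPK coding region, chr9:86587861-86587880, minus strand: aaaccaccatcaagcttttc
CBX3 3′ UTR, chr7:26251361-26251380, plus strand: TGTttctcatgaaatggtga
DEK coding region, chr6:18256061-18256080, minus strand: ttagaaatgccaTGTtaaag

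Gene lists were counted against the 6.75% of all genes with a SK-Mel-103 bin over 30 reads. Of 24 invasive and dedifferentiated melanoma genes, 15 had a SK-Mel-103 bin over 30 reads. Such bins were held by 7 of these 15, among them AXL, TGFBI, CCN1, NT5E, NGFR and SPARC. Other genes of this list did not go this way. In SK-Mel-103 and UACC-62 replicates 1 and 3, IGFBP3 had 115, 1294 and 788 IP reads and SNAI2 161, 401 and 537. VIM had 66, 66 and 63 bins over 30 reads in the same order and held no such bin. NT5E, the ecto-5′-nucleotidase CD73, had all 6 of its bins over 30 reads among them, NGFR, the neurotrophin receptor CD271, had 1 with 40 IP reads, and SPARC, a matricellular protein, had 1 of 81. SPARC also had 82 and 79 bins over 30 reads in the UACC-62 replicates. Of cytokines and growth factors 3 of 6 held such bins: FGF5, BDNF and IL24. BDNF, a neurotrophin, had 15 bins in its 3′ UTR with 31 to 57 IP reads on a median of 3 input reads, a median log2 of 3.09, and 2717, 38 and 47 IP reads in the 3 samples. IL24, a cytokine of the IL10 family, had 5 with a median log2 of -0.68. Of matrix and integrin genes 2 of 8 did (ITGA6 and ITGA3), and of the RNA-binding proteins 1 of 10, ELAVL2. ITGA6 and ITGA3 each counted through 1 bin with at most 1 other listed SK-Mel-103 bin within 200 nt. The source RNA of such isolated bins, described below, is uncertain. ITGA6 had 4, 20 and 14 bins over 30 reads in the 3 samples. ITGB3, of the same list but with no SK-Mel-103 bin over 30 reads, had 489, 15300 and 11909 IP reads. Of 17 cell cycle genes taken from the study's network, 13 had a SK-Mel-103 bin over 30 reads and 1 held such a bin (DEK). The authors sorted that network with these samples, so that the list is not independent of them. None of 8 ERK output genes, 7 cancer-testis antigens or 2 interferon response genes held one. The lists were chosen with earlier results known, and the counts are small.

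The melanocyte lineage markers were checked as the identity of both lines, and none of them held such a bin. Of 20 markers, 9 had a listed bin in SK-Mel-103 and 1 had a bin over 30 reads (SOX10), whereas 15 and 14 were listed and 7 and 8 had a bin over 30 reads in UACC-62 replicates 1 and 3. Their summed input in listed bins was 1226, 29580 and 21500 reads. MITF, the lineage transcription factor, had 44, 6612 and 5051 input reads, and the pigment cell genes TYR and GPNMB had no listed bin in SK-Mel-103. Other markers did not go this way: CDH1 had 4, 2 and 1 listed bins, OCA2 had 2, 0 and 0, TRPM1 had 2, 1 and 0, and RAB27A had 45, 9 and 48. PMEL, TYRP1, KIT and GPR143 were listed in no sample. The part of this difference between the lines in the bins described here was not tested.

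Outside protein-coding genes, 226 such bins lay in covered RNA and 97 of them in 2 clusters without an annotated gene on the strand. On chromosome 1 (GRCh37, chr1:209225681-209231500, minus strand) 66 bins over 5820 nt had 31 to 132 IP reads, a median of 50, and a median of 2 input reads. On chromosome 19 (chr19:51721061-51723780, plus strand) 31 bins over 2720 nt had 32 to 144 IP reads, a median of 47, and a median of 3 input reads. Within 2 kb of the chromosome 1 cluster there were 244 listed bins in SK-Mel-103 and none in either UACC-62 replicate, and within 2 kb of the chromosome 19 cluster 205, 0 and 2. The median log2 IP over input was 3.795 and 3.38, against a median of 3.25 for the AXL intron bins. The nearest gene upstream on the strand of the chromosome 19 cluster was the pseudogene SIGLEC22P, 5716 nt away, and for the chromosome 1 cluster it was 89064 nt away. The 2 strongest bins of each cluster, shown for these unannotated RNAs, hold no TGT, although UGU was in 37 of the 66 bins (56.1%) and in 18 of the 31 (58.1%), against 36.4% of all SK-Mel-103 bins past the filter.
Chromosome 1 cluster, chr1:209227901-209227920, minus strand, 132 IP and 7 input reads: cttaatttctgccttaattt
Chromosome 1 cluster, chr1:209227281-209227300, minus strand, 119 IP and 2 input reads: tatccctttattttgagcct
Chromosome 19 cluster, chr19:51722001-51722020, plus strand, 144 IP and 9 input reads: tatccaattctcccagcacc
Chromosome 19 cluster, chr19:51721881-51721900, plus strand, 94 IP and 3 input reads: cctaggttttcttcagtatt
Among non-coding genes, the host transcript MIR4527HG had most with 18 intronic bins of up to 61 IP reads, followed by the lncRNA ENSG00000261327 with 5, and by RNU2-64P, a U2 snRNA pseudogene, RN7SL471P, a 7SL pseudogene, and MIR222HG with 2 each.

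A smaller kind of bin stood alone. With at most 1 other listed SK-Mel-103 bin within 200 nt, a definition chosen after the values had been seen, 146 of the 1515 bins (9.64%, 8.25 to 11.2%) were isolated, against 1.93% of all SK-Mel-103 bins past the filter. Of these, 118 had no input read, 94 lay outside annotated genes and 3 in 3′ UTRs. They carried the highest read counts. Of 13 bins with more than 500 IP reads, 12 were isolated and none of the 12 had an input read. The strongest were adjacent bins in an intron of FCHO2, an endocytic adaptor named after its values were seen, with 5280 and 1916 IP reads, and bins of RNU2-64P with 4228 and 1359. Such bins were not particular to SK-Mel-103. Among the bins found only in UACC-62 replicate 1, 65 of 209 were isolated, and among those found only in replicate 3, 105 of 600. The highest IP read counts among all 209 and all 600 bins, isolated or not, were 8908 and 11027. The strongest bin of each of the 4 strongest loci is shown for comparison with the AXL introns, and none holds a TGT.
FCHO2 intron, chr5:72379021-72379040, plus strand, 5280 IP reads: cgttcctggaagcactgcaa
RNU2-64P, chr3:73160261-73160280, plus strand, 4228 IP reads: gaataggagcttgctctctc
MYO7A coding region, chr11:76910641-76910660, plus strand, 1772 IP reads: ggctgggcaggactgacccc
Outside genes, chr16:2952901-2952920, plus strand, 1609 IP reads: tagttcactccatgcatcga
Aligned reads could map to up to 20 places by the authors' setting. The gene or place named for an isolated bin, FCHO2 included, thus marks its position, and the RNA that gave its reads is uncertain. The part of multiple mapping in isolated bins was not tested. Without the isolated bins 5.26% of bins had no input read and 48.4% lay in 3′ UTRs.

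**Figure D5:**
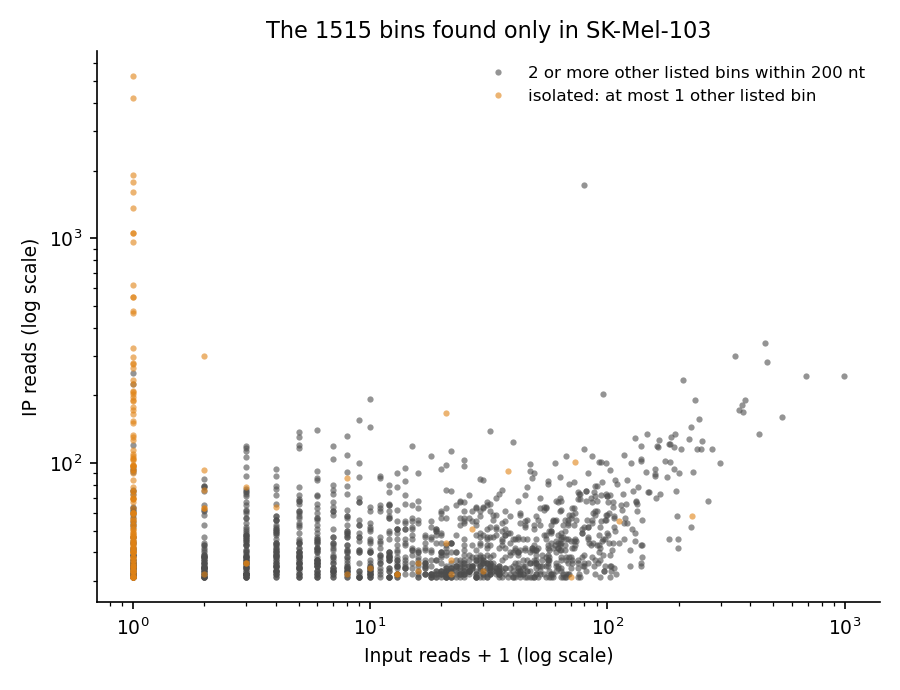
IP reads against input reads plus 1, both on logarithmic axes, for each of the 1515 bins found only in SK-Mel-103, with isolated bins in orange and all others in grey. Bins without input stand at 1 on the horizontal axis, and all but 1 of the 13 bins above 500 IP reads are isolated bins there.

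The sequence of the bins was compared for elements bound by CELF1, searched on the transcript strand only. UGUU or GUGU (counted once where both occurred or overlapped) was held by 272 of the 1515 bins (18.0%, 16.1 to 20.0%), and by 18.7% of all SK-Mel-103 bins past the filter. As a whole the bins differed little from the others in this respect, but their subsets did differ from each other. In AXL introns 48 of 121 bins (39.7%, 31.4 to 48.6%) held either element, and in the AXL coding region and 3′ UTR 7 of 68 (10.3%, 5.08 to 19.8%). Among the other intronic bins found only in SK-Mel-103 the share was 23 of 87 (26.4%, 18.3 to 36.6%), and over all SK-Mel-103 intronic bins past the filter 22.7%. The 6-mer UGUGUG, which contains GUGU, was in 27 of the 121 AXL intronic bins (22.3%) and in none of the 68 exonic ones. It was in 6 of the 87 other intronic bins found only in SK-Mel-103 (6.90%). Of all SK-Mel-103 bins past the filter 1.31% held it, and of the intronic ones among them 5.54%. In the 3′ UTR bins the share with UGUU or GUGU was 18.8%, against 20.5% of all 3′ UTR bins. The chromosome 1 and chromosome 19 clusters had 18 of 66 (27.3%) and 9 of 31 (29.03%), while the isolated bins had 10 of 146 (6.85%, 3.76 to 12.1%) and a GC content of 58.4%, against 41.0% of all bins. A match describes these letters in the window and not a binding site.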

How the data were processed

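CELF1 RIP-seq lists of 3 IP samples from 2 cell lines were used, out of 6 samples. The 3 inputs entered through the last column of each list. Per the labels, reads were processed with TopHat2 2.0.4, Bowtie 0.12.7 and SAMtools 0.1.16 on GRCh37, whereas the methods name later aligner versions and Piranha for calling. Multiple hits (up to 20) were allowed, and bins were 20 nt.

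Column 5 holds the deposited read count of the IP in each bin, a whole number without normalization. The p-value was deposited by the authors for each bin, below 0.05 throughout. The study describes a corrected threshold of 0.05, and the lists do not say whether the column holds corrected values. The ratio in the last column, deposited by the authors, is the input covariate. Dividing it by its smallest step gave whole numbers, taken as input reads. Bins without input hold 0.01 there, which equals 171.45, 387.98 and 326.23 input reads on that scale in SK-Mel-103 and UACC-62 replicates 1 and 3, more than most bins had.

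The transcript strand was taken as the reverse of the listed one. Bin centres were placed in GENCODE version 44 (mapped to GRCh37) in the order 3′ UTR, coding region, 5′ UTR, intron, exon and intron of non-coding genes. Log2 IP over input used a pseudocount of 1 read and totals over listed bins. The listed bins held 10958459, 11333805 and 14436573 IP reads, and without molecular identifiers intervals (Wilson, 95%) cover counting error only. The labels do not say whether the UACC-62 replicates came from separate cultures. Motifs used all bins outside the mitochondrial genome.

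Named genes were the protein-coding genes with most such bins (12, with ties), the 10 with the highest bin among genes without a UACC-62 bin, the 6 with the highest bin among genes over 30 reads in all samples, listed genes holding a bin, and the 5 non-coding genes with most bins. Some listed genes without such a bin were also named, for contrast. A gene that met this rule is not reported here. The members and lists were chosen with earlier results of these data known. With 1 SK-Mel-103 sample no test between the lines was run. Functions were tested on simulated data. Alternatives covered the read filter, the p-value, the definition of absence, the strand, each UACC-62 replicate, region order, gene set and motif window. Python 3.11.15, pandas 2.3.3, NumPy 2.4.6, SciPy 1.17.1 and matplotlib 3.10.9 were used.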

Additional observations from a re-analysis of the deposited data

How the results depend on the processing

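Of 73 alternative values of 7 results, 39 stayed within the range set for them (1.5 times a count, or the 95% interval of a share) and 34 moved. With filters of more than 50 and more than 100 IP reads there were 505 and 113 bins, 74 and 26 genes, 10 and 6 genes without a UACC-62 bin, 18.0% and 38.9% without input, 30.7% and 33.6% near a UACC-62 bin, and 15.9% with UGUU or GUGU at the higher filter. Counting a bin as absent whenever no UACC-62 bin had more than 30 reads gave 13897 bins in 2147 genes, 64.3% in 3′ UTRs, 3.04% without input and 93.3% near a UACC-62 bin. Counting it as absent only without a listed UACC-62 bin within 100 nt gave 932 bins in 95 genes, 35.4% in 3′ UTRs and 16.2% without input, and the nearness share then has no meaning. Leaving out UACC-62 replicate 1 or 3 gave 2196 and 2360 bins, 388 and 519 genes, 26 and 56 genes without a UACC-62 bin, 44.6% and 50.8% in 3′ UTRs, 11.5% and 11.9% without input, 51.6% and 47.4% near a UACC-62 bin, and 17.7% and 17.3% with either motif. Over all annotated genes 33 had no UACC-62 bin, and with 50 nt on each side 69.0% of bins held either motif. Alternatives added after seeing the data left out isolated bins (3′ UTR share 48.4%, without input 5.26%, near a UACC-62 bin 41.3%) or the bins of AXL (3′ UTR share 48.5%, near a UACC-62 bin 42.6%). The cause of these moves was not tested, beyond fewer or more bins by construction. No paired analysis was possible because SK-Mel-103 has a single IP sample. SK-Mel-103 has no replicate, bins listed in no UACC-62 sample give no UACC-62 input, and at 31 to 50 reads the membership of a bin rests on few UACC-62 reads.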
